A study of Mus musculus with 10 samples.

Results

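Of the G protein-coupled receptors that tune insulin secretion, 10 genes were picked by name from RNA-seq counts of sorted pancreatic beta cells, and all 10 were present among the 56748 gene identifiers counted. They were the stimulatory receptor genes Glp1r, Gipr, Gcgr and Gpr119, the fatty acid receptor genes Ffar1, Ffar2 and Ffar3, and the inhibitory receptor genes Sstr3, Adra2a and Cnr1. The LPS group consisted of 5 libraries, numbered 6 to 10, from islets cultured for 48 hours with 50 ng/ml lipopolysaccharide, a bacterial cell wall component that activates Toll-like receptor 4. The untreated group consisted of 5 libraries, numbered 1 to 5, from islets cultured without it. All islets came from male NOD mice of 6 to 8 weeks, an inbred strain prone to autoimmune diabetes, and LPS reached whole islets before dispersal with trypsin and sorting of the beta cells by flow cytometry. The submitters describe the 5 samples of a group as independent without tying any to an animal or a culture day, and the p-values below measure the spread between them.

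Beta cells release insulin in response to glucose, and receptors at their surface raise or lower that release. GLP-1 and GIP, the incretin hormones of the gut, and glucagon act through receptors coupled to Gs, which raise cyclic AMP and so potentiate secretion. Long-chain fatty acids act through the Gq-coupled receptor FFAR1, and short-chain fatty acids through FFAR2 and FFAR3. Somatostatin from neighbouring delta cells, adrenaline and noradrenaline act through Gi-coupled receptors, which lower cyclic AMP and restrain secretion.

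Counts assigned to genes ran from 18465188 to 27379892 in the LPS libraries and from 23269906 to 26137820 in the untreated libraries. Levels are given as CPM, counts scaled to a common library total with edgeR's TMM factors, and a gene was called at a Benjamini-Hochberg adjusted p under 0.05 in edgeR's quasi-likelihood test over 15942 genes. The sorted cells carried the beta cell label's defining transcripts: 9 summed beta cell markers, Ins2 the most abundant, reached 101621 to 133718 CPM in LPS and 117731 to 136527 CPM in untreated libraries. Transcripts of other islet cells were present as well. Alpha cell markers (5 genes, mostly Gcg) summed to 4049 to 8815 CPM in LPS and 4879 to 14120 CPM in untreated libraries, delta cell markers (4 genes, mostly Sst) to 4981 to 9082 CPM in LPS and 6084 to 8218 CPM in untreated libraries, and the 2 pancreatic polypeptide cell markers, led by Ppy, to 954 to 2153 CPM in LPS and 1582 to 2988 CPM in untreated libraries. Exocrine genes were lower: 8 acinar markers, led by Ctrb1, summed to 119 to 604 CPM in LPS and 205 to 449 CPM in untreated libraries, and 6 ductal markers, led by Krt7, to 559 to 706 CPM in LPS and 485 to 619 CPM in untreated libraries. Endothelial markers (7 genes, led by Esam) summed to 9.08 to 12.5 CPM in LPS and 10.3 to 33.7 CPM in untreated libraries, and 7 mesenchymal markers, led by Col1a1, to 3.47 to 25.9 CPM in LPS and 4.76 to 91.2 CPM in untreated libraries. Of blood cell markers, the 8 macrophage genes, mostly C1qa, summed to 17.0 to 23.8 CPM in LPS and 18.9 to 31.2 CPM in untreated libraries with Ptprc at 0 counts throughout. The 7 lymphocyte genes, led by Cd79a, summed to 1.14 to 2.78 CPM in LPS and 2.18 to 3.61 CPM in untreated libraries, with Cd3e, Cd3g and Ms4a1 at 0. The 5 neutrophil genes summed to 0.215 to 1.33 CPM in LPS and 0 to 0.129 CPM in untreated libraries, with Csf3r and Cxcr2 at 0. Most of this was S100a9, with 72 counts over the LPS and 3 over the untreated libraries and every LPS library above every untreated one, too few to be tested. By edgeR, 4 marker genes were called lower in LPS, the beta cell genes Slc2a2 (log2 fold change -0.86, adjusted p = 4.3e-05) and Ucn3 (-0.64, 0.00143), Ppy (-0.99, 0.0473) and the endothelial gene Kdr (-3.12, 0.0473), and 1 was called higher, the ductal gene Spp1 (0.97, 0.00404). These calls were among 9 tested beta cell, 2 pancreatic polypeptide cell, 5 endothelial and 5 ductal markers. Of 5 alpha cell, 4 delta cell, 8 acinar, 5 mesenchymal, 2 macrophage and 1 lymphocyte markers tested, none was called. The share over all genes tested was 0.928% lower and 2.84% higher. The part of cells other than beta cells in the receptor values was not tested beyond the endothelial covariate given below.

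All 10 receptor genes passed the filter on low counts. In LPS libraries 2 were called lower, Glp1r and Cnr1, and 0 were called higher by edgeR. An unadjusted p under 0.05 without a call was found for 1 gene with a lower mean in LPS, Ffar2, and for 1 with a higher mean, Adra2a. The share of all genes under that unadjusted threshold was not counted, here or for the lists below. Over all genes tested, 0.928% were called lower and 2.84% higher in LPS, 3.77% together. Every LPS library lay below every untreated library for the same 2 genes and above every untreated library for Adra2a, against 1.87% and 3.84% of all genes tested. Of the 10 log2 fold changes 8 were below 0, with a median of -0.30, while the median over all genes tested was -0.0091. DESeq2, limma-voom with sample quality weights, upper-quartile scaling, a fit without the low-count filter and a fit with 1 surrogate variable each called 1 receptor gene higher, Adra2a. Glp1r and Cnr1 were called lower in each of them, and the surrogate variable fit also called Gipr and Gcgr lower. These settings called 6.12%, 6.24%, 3.75%, 2.00% and 8.37% of all genes in either direction. Limma-voom without weights, which called Glp1r and Cnr1 alone, called 3.64%.

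**Figure D1:**
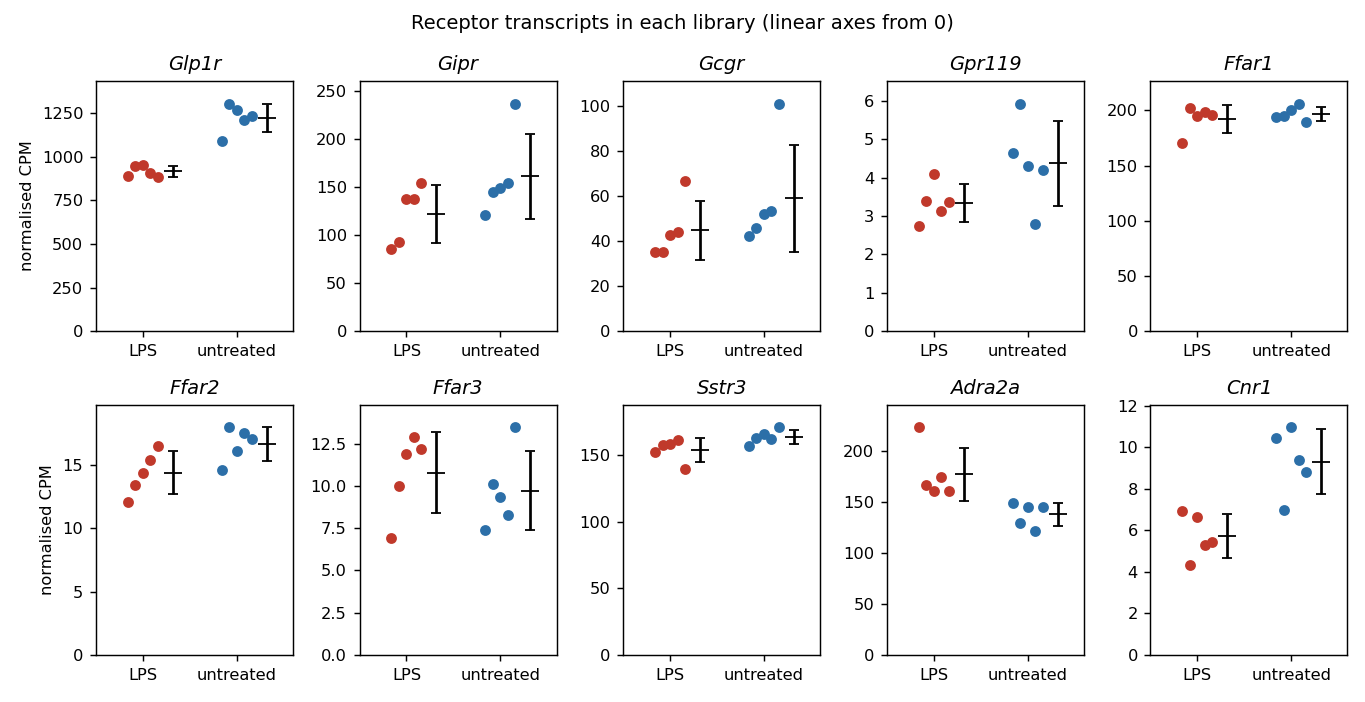
Normalised CPM (y axis, linear from 0) of each receptor gene in the 5 LPS libraries (red) and the 5 untreated libraries (blue); the black bar is the mean with its SD. The groups do not overlap for Glp1r and Cnr1, lower in LPS, and for Adra2a, higher in LPS.

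**Figure D2:**
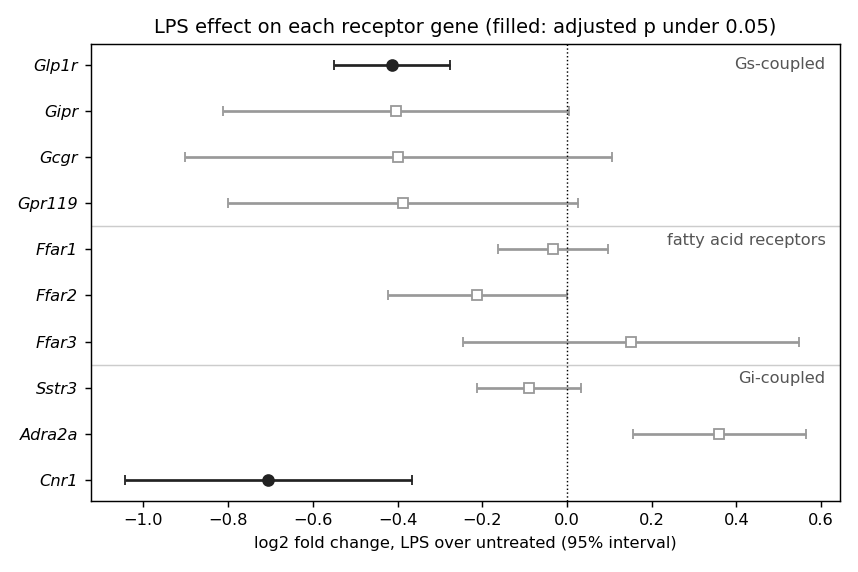
Log2 fold change of LPS over untreated (x axis) with its 95% interval from the edgeR fit for each receptor gene (y axis), grouped by role. Glp1r at -0.41 and Cnr1 at -0.71 are the called genes, and the interval of Adra2a, 0.15 to 0.57, also lies on one side of 0.

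Glp1r, Cnr1 and Adra2a are the receptor genes whose groups did not overlap, and the 250 bases before their first annotated start are shown so that their promoters can be compared. The sequences are RefSeq's for the reference strain on GRCm38.p6, whereas the counts were made on GRCm39 from NOD cells, and 9 of the 10 genes matched the promoter table. Capitals mark the GC box GGGCGG on either strand. The windows are chr17:30901617-30901866, chr4:33924014-33924263 and chr19:54045009-54045258, each on the plus strand.
Glp1r: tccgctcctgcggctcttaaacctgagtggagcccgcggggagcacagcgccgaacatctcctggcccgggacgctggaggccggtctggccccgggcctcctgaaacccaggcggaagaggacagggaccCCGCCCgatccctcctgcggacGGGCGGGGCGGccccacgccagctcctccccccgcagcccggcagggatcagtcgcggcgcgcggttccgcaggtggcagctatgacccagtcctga
Cnr1: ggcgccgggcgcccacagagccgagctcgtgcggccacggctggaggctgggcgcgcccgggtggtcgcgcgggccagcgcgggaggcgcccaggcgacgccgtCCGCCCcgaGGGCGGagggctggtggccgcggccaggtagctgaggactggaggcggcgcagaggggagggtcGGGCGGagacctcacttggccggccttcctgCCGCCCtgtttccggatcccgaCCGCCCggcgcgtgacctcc
Adra2a: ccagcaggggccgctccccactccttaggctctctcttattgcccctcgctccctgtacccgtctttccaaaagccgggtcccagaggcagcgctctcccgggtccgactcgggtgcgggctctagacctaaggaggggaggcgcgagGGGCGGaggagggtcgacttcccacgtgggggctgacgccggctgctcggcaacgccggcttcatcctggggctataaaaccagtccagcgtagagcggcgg
Glp1r had 3 GC boxes, a pair of them overlapping, Cnr1 had 5 and Adra2a had 1, and 32.7% of 32851 windows of this length hold at least 1. The G and C content was 73.2% for Glp1r, 79.2% for Cnr1 and 67.6% for Adra2a, against a median of 52.4% over all windows. Gcgr, whose groups overlapped, had 70.4% and 2 GC boxes. The windows of Ffar1, Ffar2, Ffar3, Gpr119 and Sstr3 ran from 48% to 57.2%. Of these genes Ffar2, whose groups overlapped, held a GC box in the windows before its starts 3 and 4. In all, 6 of the 15 windows of the 9 genes held at least 1 GC box. Cnr1 has 3 annotated starts, and the windows before the other 2 held no GC box. On either strand, Adra2a also held the TATA box TATAAA, the E-box CACGTG and the cyclic AMP response element core TGACG, 1 match each, and the windows shown for Glp1r and Cnr1 held none of them (12.4%, 6.02% and 17.8% of all windows do). Sstr3, whose groups overlapped, held CACGTG and TGACG before its first start. Gpr119 and Ffar3 held TGACG as well. CACGTG was also found in Ffar2 before its first start and in Cnr1 before its second start. The NF-kB consensus and the core of the interferon-stimulated response element were found on neither strand in any of the 15 windows of the 9 genes, while 3.90% and 2.98% of all windows hold them, which says only that their letters are not there.

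Glp1r (ENSMUSG00000024027, chromosome 17) encodes the receptor of GLP-1 and had the highest CPM of the 10 genes. It stood at 892, 948, 951, 905 and 886 CPM in LPS libraries 6 to 10, against 1092, 1304, 1266, 1209.6 and 1236 CPM in untreated libraries 1 to 5. Every LPS library lay below the lowest untreated one, library 1. The means were 917 ± 30.9 CPM in LPS and 1221 ± 80.7 CPM in untreated libraries (SD, n = 5 each), a fall of 25.0%. The log2 fold change was -0.41 with an SE of 0.064 (edgeR adjusted p = 0.00179). In counts from a mixed sample, fewer cells of a type and less RNA per cell cannot be told apart. The call held in each of the 10 fits with 1 library left out, at log2 fold changes of -0.45 to -0.39 and edgeR adjusted p up to 0.00830. It was lost with the endothelial marker mean as a covariate (-0.31, edgeR adjusted p = 0.0734) and with the share of the abundant gene ENSMUSG00000119584 as one (-0.47, edgeR adjusted p = 0.0550), fits that called 1.1% and 0.985% of all genes. Untreated 1, with the lowest endothelial sum of its group at 10.3 CPM, also had the lowest Glp1r level of its group, which was above all LPS libraries. This was 1 library, and the cause of the lost calls was not tested.

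Ratios between receptor genes within a library do not depend on the library scaling, and 3 of them were computed. Glp1r had 4.77 counts per Ffar1 count in LPS and 6.20 in untreated libraries (geometric means), a difference of -0.38 on the log2 scale with all 5 LPS libraries below all untreated ones. A two-sided exact permutation test gave p = 0.00794, the smallest that 5 libraries against 5 allow. Adjusted over the 3 ratios, the one to Adra2a included, it was 0.0119. The groups of Glp1r were already separated and the Ffar1 difference was small, so this p-value is no separate support for the Glp1r call. Against Adra2a the ratio was 5.22 in LPS and 8.87 in untreated libraries, a log2 difference of -0.76. This ratio is given as a description, without its own p-value, because the groups of both genes were already separated in opposite directions and so fix its separation. Against Gipr, the receptor gene of the other incretin, the ratio was 7.74 in LPS and 7.78 in untreated libraries (log2 difference -0.0072, exact p = 0.984), within the spread between libraries (SD of 0.39 in LPS and 0.33 in untreated, log2).

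Gipr, the gene of the GIP receptor, and Gcgr, the gene of the glucagon receptor, spread widely between the libraries of a group, more so in the untreated group. Gipr stood at 85.6, 93.0, 137, 138 and 154 CPM in LPS libraries 6 to 10, against 121, 144, 149, 154 and 236 CPM in untreated libraries 1 to 5. The groups overlapped, with untreated 5 far above the rest. Gipr averaged 122 ± 30.3 CPM in LPS and 161 ± 44.0 CPM in untreated libraries (SD, n = 5 each) and was not called (log2 fold change -0.40 ± 0.19 SE, 95% interval -0.81 to 0.0036, edgeR adjusted p = 0.333). The estimate was close to that of Glp1r, but its SE was larger (0.19 against 0.064).

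Gcgr stood at 35.3, 35.1, 42.6, 43.8 and 66.6 CPM in LPS libraries 6 to 10, against 42.4, 45.9, 51.9, 53.4 and 101 CPM in untreated libraries 1 to 5. Here too untreated 5 was the highest of its group and LPS 10 the highest of its own, and the groups overlapped (44.7 ± 12.9 CPM in LPS and 58.9 ± 23.9 CPM in untreated libraries, SD, n = 5 each; log2 fold change -0.40 ± 0.23 SE, 95% interval -0.90 to 0.11, edgeR adjusted p = 0.470). Without untreated 5 the log2 fold change of Gcgr was -0.12 (edgeR adjusted p = 0.774) and that of Gipr -0.22 (0.510). Without LPS 10 they were -0.59 (0.224) and -0.50 (0.241). With untreated 5 and LPS 10 both left out, a setting chosen after seeing the data, they were -0.31 (edgeR adjusted p = 0.127) and -0.33 (0.312). A fit with 1 surrogate variable, which absorbs variation shared by libraries across groups, called both genes lower (Gipr -0.45, adjusted p = 0.00188; Gcgr -0.43, adjusted p = 0.0265).

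The libraries highest in Gcgr and Gipr were those lowest in alpha cell transcripts. The summed alpha cell markers were 4049 CPM in LPS 10 and 5669 to 8815 CPM in the other LPS libraries, and 4879 CPM in untreated 5 and 7329 to 14120 CPM in the other untreated libraries. Untreated 1, with the highest alpha cell sum, had the lowest Gcgr and Gipr values of the untreated group. In the LPS group the relation was not in strict order, since LPS 8 had the highest alpha cell sum and neither the lowest Gcgr nor the lowest Gipr value. The part of alpha cell content in these receptor values was not tested. Beta cell markers were also highest in these libraries, at 133718 CPM in LPS 10 and 136527 CPM in untreated 5.

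**Figure D3:**
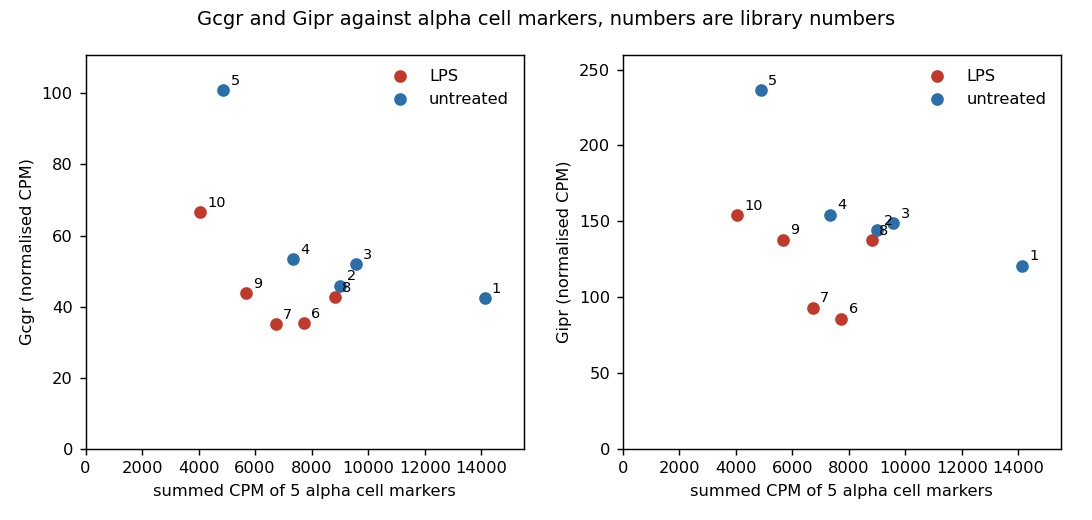
Gcgr (left) and Gipr (right) in normalised CPM (y axis) against the summed CPM of 5 alpha cell markers (x axis) in LPS (red) and untreated (blue) libraries, each marked with its number. LPS 10 and untreated 5, at 4049 and 4879 CPM of alpha cell markers, have the highest values of both receptor genes in their groups.

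Gpr119, whose product senses oleoylethanolamide and related lipids and couples to Gs, was the transcript with the fewest counts, 56 to 146 per library. It stood at 2.73, 3.40, 4.09, 3.12 and 3.36 CPM in LPS libraries 6 to 10, against 4.63, 5.92, 4.31, 2.80 and 4.19 CPM in untreated libraries 1 to 5. Untreated 4 lay among the LPS libraries, and the gene was not called (log2 fold change -0.39 ± 0.19 SE, 95% interval -0.80 to 0.026, edgeR adjusted p = 0.368). All 4 stimulatory receptor genes thus had estimates between -0.41 and -0.39. Of the 4, 1 was called lower, against 0.928% of all genes tested, and the 95% intervals of the 3 not called reached above 0. With single libraries left out, Gipr ran from -0.50 to -0.22, Gcgr from -0.59 to -0.12 and Gpr119 from -0.51 to -0.25. Glp1r ran from -0.45 to -0.39 in the same fits.

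None of the 3 fatty acid receptor genes was called by edgeR, DESeq2 or limma-voom, and 1 of them, Ffar2, had an unadjusted edgeR p under 0.05. Ffar1, the receptor gene of long-chain fatty acids, stood at 171, 202, 195, 198 and 196 CPM in LPS libraries 6 to 10, against 194, 195, 200.2, 206 and 189 CPM in untreated libraries 1 to 5. Apart from LPS 6, the low one, the LPS libraries lay within the untreated range. The log2 fold change was -0.033 ± 0.060 SE with a 95% interval of -0.16 to 0.096, so that a change of the size seen in Glp1r lay outside it (edgeR adjusted p = 0.864), and the sign turned in 3 of the 21 other planned fits. Ffar2 stood at 12.1, 13.5, 14.4, 15.4 and 16.5 CPM in LPS libraries 6 to 10, against 14.6, 18.0, 16.1, 17.6 and 17.0 CPM in untreated libraries 1 to 5. Its groups overlapped (log2 fold change -0.21 ± 0.098 SE, edgeR adjusted p = 0.326). Ffar3 stood at 6.93, 10.0, 11.9, 12.9 and 12.2 CPM in LPS libraries 6 to 10, against 7.42, 10.1, 9.38, 8.26 and 13.5 CPM in untreated libraries 1 to 5. The spread within each group was wider than the gap between the means (0.15 ± 0.18 SE, 95% interval -0.25 to 0.55, edgeR adjusted p = 0.776).

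These 3 genes stand side by side on chromosome 7 in RefSeq, in the order Ffar2, Ffar3, Ffar1 with no other protein-coding gene between them, and Gipr lies on the same chromosome. They differed in level all the same: Ffar1 averaged 46.1 CPM per kilobase of exon in LPS and 47.1 in untreated libraries, Ffar2 5.16 in LPS and 5.97 in untreated, and Ffar3 5.84 in LPS and 5.26 in untreated libraries. No exon of the 10 receptor genes overlapped another gene in the GENCODE M21 annotation, and in RefSeq the span of Ffar2 overlapped that of the non-coding gene Gm32236.

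The 3 Gi-coupled receptor genes had estimates on both sides of 0. Sstr3, a somatostatin receptor gene, stood at 152, 158, 158, 162 and 139 CPM in LPS libraries 6 to 10, against 157, 163, 166, 162 and 171 CPM in untreated libraries 1 to 5. The groups overlapped and the difference was small (log2 fold change -0.089 ± 0.057 SE, 95% interval -0.21 to 0.034, edgeR adjusted p = 0.518). Of the other somatostatin receptor genes, Sstr5 had 10 counts summed over the LPS and 2 over the untreated libraries, too few to be tested.

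Adra2a (ENSMUSG00000033717, chromosome 19), the gene of the alpha-2A adrenergic receptor through which adrenaline restrains insulin release, stood at 223, 166, 161, 174 and 160.5 CPM in LPS libraries 6 to 10, against 149, 129.7, 144, 122 and 144 CPM in untreated libraries 1 to 5. Every LPS library was above every untreated one, and LPS 6 was far above the other LPS libraries. The means were 177 ± 26.3 CPM in LPS and 138 ± 11.5 CPM in untreated libraries (SD, n = 5 each), 28.3% higher in LPS, and the gene missed the call in edgeR (log2 fold change 0.36 ± 0.095 SE, 95% interval 0.15 to 0.57, adjusted p = 0.0555). The call depended on the setting: DESeq2 gave an adjusted p of 0.0141, limma-voom with quality weights 0.0219, the fit without a low-count filter 0.0276, upper-quartile scaling 0.0448 and the surrogate variable fit 0.00875, while no fit with 1 library left out called it (edgeR adjusted p of 0.0507 to 0.151). Without LPS 6 the log2 fold change was 0.26 (edgeR adjusted p = 0.0754). Its relatives Adra2b and Adra2c had 21 and 4 counts summed over the LPS and 33 and 3 over the untreated libraries.

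Cnr1 (ENSMUSG00000044288, chromosome 4), the gene of the cannabinoid receptor CB1, had the largest log2 fold change of the 10 in size, at a low level of 98 to 142 counts per LPS library and 172 to 268 counts per untreated library. It stood at 6.93, 4.30, 6.65, 5.27 and 5.43 CPM in LPS libraries 6 to 10, against 10.4, 6.97, 10.9, 9.38 and 8.79 CPM in untreated libraries 1 to 5. The groups did not overlap, but LPS 6 and untreated 2 were nearly equal. The means were 5.72 ± 1.08 CPM in LPS and 9.30 ± 1.55 CPM in untreated libraries (SD, n = 5 each), a fall of 38.7%. The log2 fold change was -0.71 with an SE of 0.16 (edgeR adjusted p = 0.0221). The call was lost without LPS 7 (edgeR adjusted p = 0.0533), LPS 9 (0.0656), LPS 10 (0.0508), untreated 3 (0.0736) or untreated 4 (0.0523), while the log2 fold change stayed between -0.79 and -0.62. It was also lost with the endothelial (edgeR adjusted p = 0.0755) and the ENSMUSG00000119584 covariate (0.0956), at -0.84 and -0.97. Untreated 1 had an endothelial sum of 10.3 CPM and a mesenchymal sum of 5.44 CPM, within the range of the LPS libraries for both, and 10.4 CPM of Cnr1. This was 1 library, and the cause of the lost calls was not tested. The gene of the second cannabinoid receptor, Cnr2, had 1 count summed over each group.

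**Figure D4:**
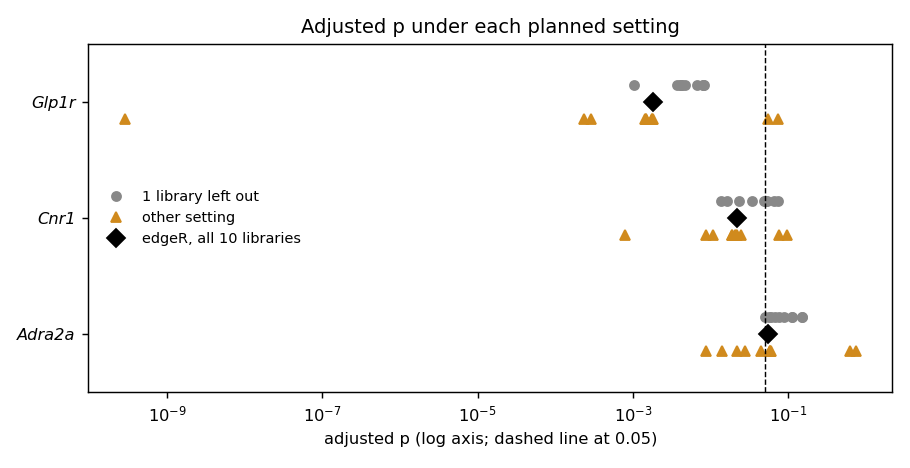
Adjusted p (x axis, log scale, dashed line at 0.05) of Glp1r, Cnr1 and Adra2a in the edgeR fit of all 10 libraries (diamonds), with 1 library left out (grey circles) and under the other planned settings (orange triangles). Glp1r stays under 0.05 in all 10 fits with 1 library left out, Cnr1 in 5 and Adra2a in 0.

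Per kilobase of exon in GENCODE M21, a length that may differ from the authors' annotation, Glp1r had 158 ± 5.31 CPM in LPS and 210.2 ± 13.9 CPM in untreated libraries (SD, n = 5 each), above all other receptor genes in every library with these lengths. In untreated libraries Ffar1 (47.1), Gipr (46.2) and Sstr3 (37.9) followed, each overlapping its neighbour in this order. Adra2a (28.5) lay below Sstr3 without overlap and overlapped Gcgr (22.5), and Ffar2, Ffar3, Gpr119 and Cnr1 ranked below at 5.97, 5.26, 1.93 and 1.44 CPM per kilobase. In LPS libraries Adra2a ranked next after Ffar1, at 36.6 against 46.1 CPM per kilobase, with values overlapping those of Ffar1, Sstr3 (35.6) and Gipr (34.9). The rank of Ffar1 depends on its length, which is 4175 bases of exon in GENCODE M21 and 903 bases in RefSeq. Over the RefSeq length, an alternative added after seeing the data, Ffar1 had 213 ± 13.8 CPM per kilobase in LPS and 218 ± 7.12 in untreated libraries (SD, n = 5 each), above Glp1r in every LPS library and overlapping it in untreated libraries. Only the length of Ffar1 was changed and Glp1r kept its GENCODE M21 length, so the 2 values rest on unlike lengths.

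The genes most like the called receptor genes across the 10 libraries were taken as the 3 with the highest Pearson correlation of log2 CPM among 13673 others, as a description in which the group difference itself takes part. For Glp1r they were Slc2a2 (r = 0.987), the gene of the glucose transporter GLUT2, Adarb1 (0.986), which encodes an RNA-editing enzyme, and Slc30a8 (0.983), the gene of the granule zinc transporter. Each of these was called lower in LPS, with log2 fold changes of -0.86, -0.39 and -0.59 in the edgeR fit. For Cnr1 they were Dtnbos (0.957), Ltbp2 (0.941) and Galnt10 (0.934), and none of these was called by edgeR (adjusted p of 0.0514, 0.0937 and 0.255).

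Of 37 other receptor genes of islet hormone, transmitter and lipid signals, 22 could be tested, 2 were called higher and 0 lower, or 9.09%, while 3.77% of all genes tested were called in either direction. Gabbr2, a subunit of the GABA-B receptor, averaged 268 ± 22.5 CPM in LPS and 185 ± 29.4 CPM in untreated libraries (SD, n = 5 each; log2 fold change 0.54, edgeR adjusted p = 0.0109). Galr3, a galanin receptor gene, averaged 37.7 ± 2.00 CPM in LPS and 31.6 ± 1.81 CPM in untreated libraries (0.26, edgeR adjusted p = 0.0468), a call lost in all 10 fits with 1 library left out. Both receptors couple to Gi, and the groups did not overlap for either. Of 8 tested genes listed as Gi-coupled, the ghrelin receptor gene Ghsr (not called) among them, 2 were called and 3 had an unadjusted p under 0.05. Over all the receptor and signalling lists given here and below, 21 of 103 tested genes had such a p. Galr1, another galanin receptor gene, had a lower mean in LPS and was not called (-0.31, edgeR adjusted p = 0.0625). None of 7 tested receptor genes listed as Gs-coupled and 7 listed as Gq-coupled was called by edgeR (3 and 1 at an unadjusted p under 0.05). By the mean over all 10 libraries, the most abundant Gs-coupled one was Vipr1, which responds to vasoactive intestinal peptide, at 45.2 CPM in LPS and 52.3 CPM in untreated libraries, and the most abundant Gq-coupled one was the muscarinic receptor gene Chrm3, at 64.9 CPM in LPS and 58.3 CPM in untreated libraries. The calcium-sensing receptor gene Casr was close to it, at 53.3 CPM in LPS and 68.6 CPM in untreated libraries. Not a single read was assigned to the melatonin receptor gene Mtnr1b, and by counting error alone 3 counts per group set its upper limit at 0.0268 CPM for LPS and 0.0247 CPM for untreated.

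The machinery behind the receptors showed 1 called gene among 38 tested G protein, cyclase, phosphodiesterase, protein kinase A, Epac and CREB genes, or 2.63%, against 3.77% of all genes tested. Pde1c, a calmodulin-activated phosphodiesterase gene, averaged 96.2 ± 14.0 CPM in LPS and 60.4 ± 10.6 CPM in untreated libraries (SD, n = 5 each; log2 fold change 0.67, edgeR adjusted p = 0.00892), with 1 LPS library just below the highest untreated one. In LPS libraries the Gs subunit gene Gnas averaged 1528 CPM, the cyclase gene Adcy6 174, the phosphodiesterase gene Pde3b 177, the kinase subunit gene Prkar1a 679 and the CREB coactivator gene Crtc1 107. In untreated libraries Gnas averaged 1543 CPM, Adcy6 171, Pde3b 186, Prkar1a 660.1 and Crtc1 116. None of these was called by edgeR. None of 11 CREB target genes was called by edgeR either (1 at an unadjusted p under 0.05), with Fos, the most abundant, at 1443 ± 231 CPM in LPS and 1602 ± 59.3 CPM in untreated libraries. Their median log2 fold change was -0.14, against -0.0091 for all genes tested.

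Among 20 tested genes of receptor desensitisation and regulation, 2 rose and 1 fell, or 15%, against 3.77% of all genes tested. All 3 were RGS genes, whose products speed the shut-off of G proteins. Rgs4 was the gene with the lowest adjusted p in these lists. It ran from 717 to 983 CPM in LPS and from 295 to 476 CPM in untreated libraries, with means of 835 ± 99.9 CPM in LPS and 416 ± 73.0 CPM in untreated libraries (SD, n = 5 each; log2 fold change 1.01 ± 0.12 SE, edgeR adjusted p = 3.23e-04). This call held in all 21 other planned fits. Rgs17 rose as well (52.3 ± 6.36 CPM in LPS and 38.1 ± 5.04 CPM in untreated libraries; 0.46, edgeR adjusted p = 0.0258), and Rgs3 fell (47.0 ± 5.11 CPM in LPS and 60.1 ± 2.43 CPM in untreated libraries; -0.35, edgeR adjusted p = 0.0169). The Rgs17 call was lost without LPS 7, LPS 9, LPS 10, untreated 2 or untreated 3 (edgeR adjusted p up to 0.0788), and the Rgs3 call without LPS 9, untreated 2 or untreated 3 (up to 0.0581). The arrestin gene Arrb2, the receptor kinase gene Grk3 and the receptor-modifying protein gene Ramp2 stood at 43.8, 264 and 11.3 CPM in LPS and at 49.1, 251 and 10.6 CPM in untreated libraries, and none was called by edgeR.

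Of 12 tested genes of ligands and ligand enzymes, 1 rose and 1 fell, or 16.7%, against 3.77% of all genes tested. Gal, which encodes the inhibitory peptide galanin, averaged 3.64 ± 0.94 CPM in LPS and 0.72 ± 0.38 CPM in untreated libraries (SD, n = 5 each; log2 fold change 2.32, edgeR adjusted p = 0.00187), on 415 counts over the LPS and 88 over the untreated libraries. Dpp4, the peptidase gene whose product inactivates GLP-1 and GIP, averaged 109 ± 2.99 CPM in LPS and 136 ± 6.53 CPM in untreated libraries (-0.31 ± 0.054 SE, edgeR adjusted p = 0.00404), and every LPS library was below every untreated one. Gcg, the precursor gene of glucagon and GLP-1, had 6558 ± 1834 CPM in LPS and 8931 ± 3393 CPM in untreated libraries and was not called (edgeR adjusted p = 0.445). The endocannabinoid synthesis gene Dagla had 79.5 CPM in LPS and 75.5 CPM in untreated libraries, and none of the 6 endocannabinoid enzyme genes was called by edgeR (0 at an unadjusted p under 0.05; limma-voom and DESeq2 called 0 as well). Of the 8 calls in these lists, Rgs4 alone held with the endothelial covariate (edgeR adjusted p = 0.0138), and Rgs4 and Gal with the ENSMUSG00000119584 covariate (0.00613 and 0.0383).

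**Figure D5:**
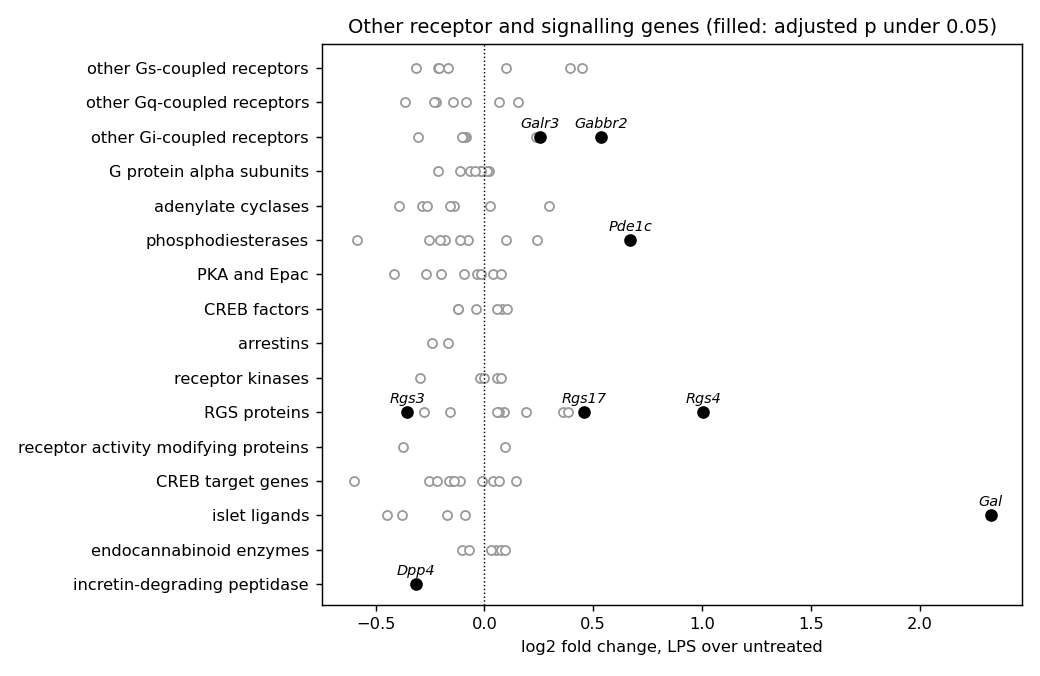
Log2 fold change of LPS over untreated (x axis) of the tested genes of each receptor and signalling group (y axis), filled where the edgeR adjusted p was under 0.05. The called genes are named, with Gal at 2.32 and Rgs4 at 1.01 farthest above 0 and Rgs3 at -0.35 and Dpp4 at -0.31 below it.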

How the data were processed

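RNA-seq was analysed from 10 tables, 1 per library, each holding raw counts per Ensembl gene identifier as deposited by the authors. Per the submitters' processing notes, the tools named are STAR, HTSeq, FastQC, Trimmomatic, SAMtools and DESeq2 and the build is GRCm39, with no roles or order given. For versions, annotation release, kit and strand setting the sources used here give nothing. Without strand, a gene and an antisense partner cannot be told apart. Groups and library numbers came from the titles. The groups share no number, and the labels name no batch.

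Summary totals that belong to no gene entered neither library sizes nor tests: reads outside genes (8.84% to 12.9% of all reads in a table), ambiguous reads (1.40% to 1.61%) and reads aligned to several places (4.89% to 6.10%). No 2 libraries agreed within sampling noise (the lowest chi-square per gene between libraries of a group was 6.13). Symbols were matched for 52073 of 56748 identifiers.

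Counts were analysed in R 4.3.3 with edgeR 4.0.16 (filterByExpr, minimum count 10 and minimum total 15; TMM; quasi-likelihood F test, no covariate), adjusted by Benjamini-Hochberg over 15942 genes. SEs come from the fold change and its F statistic, 95% intervals from the t distribution with the fit's degrees of freedom. Ratios used counts plus 0.5. The fit was tested on simulated data. The other settings were DESeq2 size factors or upper-quartile factors in edgeR, library sizes without the 20 most abundant genes, no low-count filter, 1 CPM in 5 libraries, DESeq2 1.42.0, limma-voom (limma 3.58.1) with and without quality weights, 1 surrogate variable (sva 3.50.0), 2 covariates, and each library left out.

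The receptor genes, the lists and the ratios were chosen with earlier results of these data known, so their counts are not independent support for them. Named besides the 10 receptor genes were up to 4 called genes and the most abundant gene of each role in the lists, the most abundant marker of each cell type and the 3 genes most like each called receptor gene. Sstr5, Adra2b, Adra2c, Cnr2, Mtnr1b, Gm32236, Casr, Galr1, Ghsr and the called markers were named beyond that rule. Figures were drawn with Python 3.11.15 and matplotlib 3.10.9.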

Additional observations from a re-analysis of the deposited data

Results flagged for a closer look

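Within groups of 5, 26 sets of values of the receptor genes and their ratios were examined for a single library far from the others, which chance gives in about 1 of 20 sets. Gcgr was high in LPS 10, at 66.6 CPM with the next library at 43.8 CPM, and in untreated 5, at 101 CPM with the next at 53.4 CPM. In LPS 6, Ffar1 was low, at 171 CPM with the next library at 195 CPM, and Adra2a was high, at 223 CPM with the next at 174 CPM. The log2 ratio of Glp1r to Gipr counts was low in untreated 5, at 2.39 with the next library at 2.97.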

How the results depend on the processing

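The number of receptor genes called lower (2) was 4 with the surrogate variable, 0 with either the endothelial or the ENSMUSG00000119584 covariate, 1 to 2 with single libraries left out and 1 without untreated 5 and LPS 10, a setting chosen after seeing the data. The number called higher (0) was 1 with the surrogate variable, DESeq2, quality weights, no low-count filter and upper-quartile factors, in each case Adra2a. Over all genes, 601 were called in edgeR, 1335 with the surrogate variable, 976 with DESeq2, 994 with quality weights, 176 with the endothelial and 157 with the ENSMUSG00000119584 covariate, and 401 to 624 with single libraries left out. In the signalling lists the 8 called genes became 17, 1 and 2 with the surrogate variable, the endothelial and the ENSMUSG00000119584 covariate, and 5 to 10 with single libraries left out. These covariates add a term to a fit of 10 libraries, and the cause of the lost calls was not tested. Signs turned for values near 0: Ffar1 was at 0.0063 with the endothelial and 0.013 with the ENSMUSG00000119584 covariate and from -0.058 to 0.00011 with single libraries left out, Ffar3 at -0.031 with the ENSMUSG00000119584 covariate, and the Glp1r to Gipr ratio ran from -0.15 to 0.10. No paired analysis was possible because the groups share no replicate number. Depth limits Gpr119 and Cnr1 most, at 56 to 146 and 98 to 268 counts per library.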
